A study of Mus musculus with 8 samples.

Results

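Wild-type mouse embryonic stem (ES) cells were compared as undifferentiated cultures (day 0) and as embryoid bodies at day 6 of differentiation, across all genes of the array. The comparison uses the 4 arrays labelled wild type, 2 for each day, of the 8 arrays in the series. The other 4 arrays hold cells heterozygous for Nkx2-5 R141C, a point mutation in a homeobox factor of the heart, at the same days, and enter here through the shared estimate of the spread, the choice of probe and of genes to test, and in 1 comparison near the end. Per the labels, wild-type aggregates formed without LIF in hanging drops for 2 days, spent 3 days in suspension and were plated on gelatin at day 5 for 24 hours. LIF is the cytokine that holds mouse ES cells in self-renewal. The series design names the day 6 cells as cardiac progenitors and each sample as 1 of 2 biological replicates. The labels name no ES line, clone, strain or sex, so the p-values measure the spread between these arrays.

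Mouse ES cells in the naive state resemble the epiblast of the blastocyst and run on a network around Pou5f1 (Oct4), Sox2 and Nanog. When LIF is withdrawn and the cells aggregate, they leave that state, and parts of the aggregate pass through a stage like the primitive streak, where mesoderm and endoderm arise. Mesoderm then gives heart muscle, vessels and the first red blood cells, while an outer layer resembles the visceral endoderm of the yolk sac. An array of total RNA averages over all of these cells, so fewer cells of a type and less RNA per cell cannot be told apart.

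Signals are log2 of the scanner's processed signal after the 75th percentile of each array was set to 0, so a value of 0 marks a bright gene and most genes lie below it. Values are given for replicate 1 and then replicate 2. A change is the day 6 mean minus the day 0 mean with its standard error (SE) from limma, and a gene was called higher or lower at a Benjamini-Hochberg adjusted p under 0.05 over all tested genes. A signed number alone after a gene name is its change on the log2 scale. A fold written as "at least" is a lower bound, used where no probe of the gene stood above background on the arrays of the dimmer day. Other values are of the brightest probe of a gene, and where it stood above background on 1 array of the dimmer day that is said for called genes. With 2 arrays against 2, an exact permutation test of a single gene cannot go below p = 0.333.

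Many genes differed between the days. Of 25893 tested, 6203 (24%) were called, 2865 higher at day 6 (11.1%) and 3338 lower (12.9%), the shares against which the counts of each list below have to be read. The median called rise was 3.52-fold and the median called fall 3.07-fold. Counted with the lower bound where a gene had one, large changes were mostly rises. At least 16-fold, 325 genes were higher and 138 lower, and at least 64-fold, 77 were higher and 4 lower. Of 258 tested genes above background on both day 6 arrays with no probe above background at day 0, 244 were called higher. In the opposite direction, 2142 tested genes stood above background on both day 0 arrays with no probe above it at day 6. Of those, 767 were called lower. The bounds thus capped more falls than rises, and their part in the excess of large rises was not tested. The median over all tested genes was -0.12. With each array scaled to its median instead, 3112 genes were higher and 2753 lower. Without the filter on dim probes, 5733 were higher and 3261 lower. The balance between rises and falls thus rests on the scaling and on the filter. The 2 days did not overlap for 71.3% of tested genes, against which the same count in any list below has to be read. Leaving out day 0 replicate 1 left 4371 calls and leaving out its partner 4017, while 2476 genes were called with day 6 replicate 1 left out and 2155 with day 6 replicate 2 left out.

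**Figure D1:**
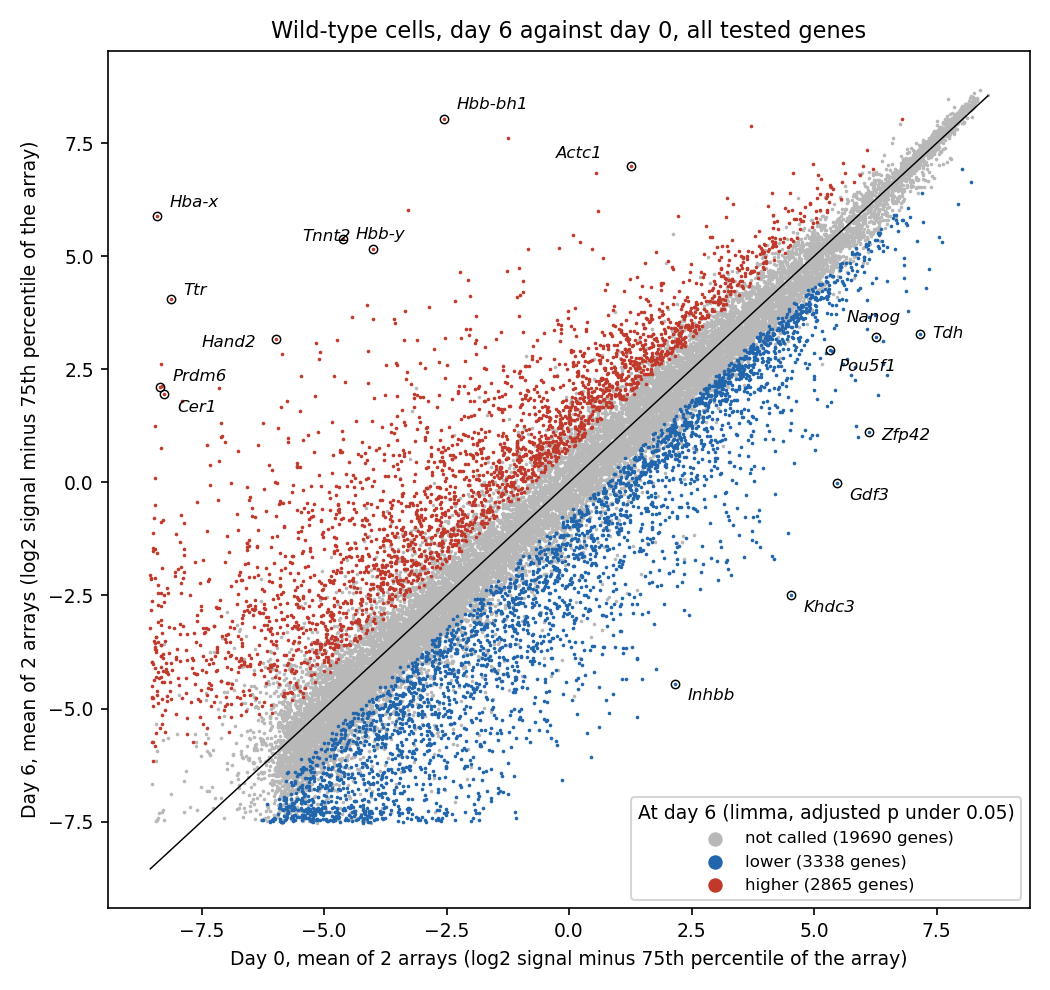
Mean log2 signal of the 2 day 6 arrays (vertical axis) against the mean of the 2 day 0 arrays (horizontal axis) for the 25893 tested genes, with the 75th percentile of each array at 0. Red points are the 2865 genes called higher at day 6 and blue points the 3338 called lower; the embryonic globins and Ttr lie at the upper left, Khdc3 and Inhbb at the lower right, and a band of dim blue points lies along the lowest day 6 signals.

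The arrays of the 2 days differed in brightness at the dim end. On the day 0 arrays 37360 and 39251 probes stood well above background, against 33569 and 31040 at day 6, out of 55681 probes. All arrays shared 1 slide and 1 scan, with every day 0 array in 1 column and every day 6 array in the other, so day and slide position cannot be told apart. Replicates correlated across genes at 0.983 at day 0 and 0.994 at day 6, and differed by over 2 on the log2 scale for 562 genes at day 0 and 105 at day 6. Of the 562, 456 were brighter in day 0 replicate 1. That array was also the brighter of its pair for 23 of 29 sarcomere genes, 20 of 24 collagens and 14 of 16 surface ectoderm genes, and its part in the results was tested only by leaving it out. It was so for 9 of 26 naive pluripotency genes and 6 of 28 glycolysis and hypoxia genes, and the share over all tested genes was not counted. Genes of constant use moved little. The reference list had 1 called member of 14, with a median change of 0.10, and the exception was Hprt, a purine salvage enzyme, which was 2-fold lower (adjusted p = 0.00938). Hprt lost its call without day 6 replicate 1 or day 6 replicate 2 (highest adjusted p = 0.0749).

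**Figure D2:**
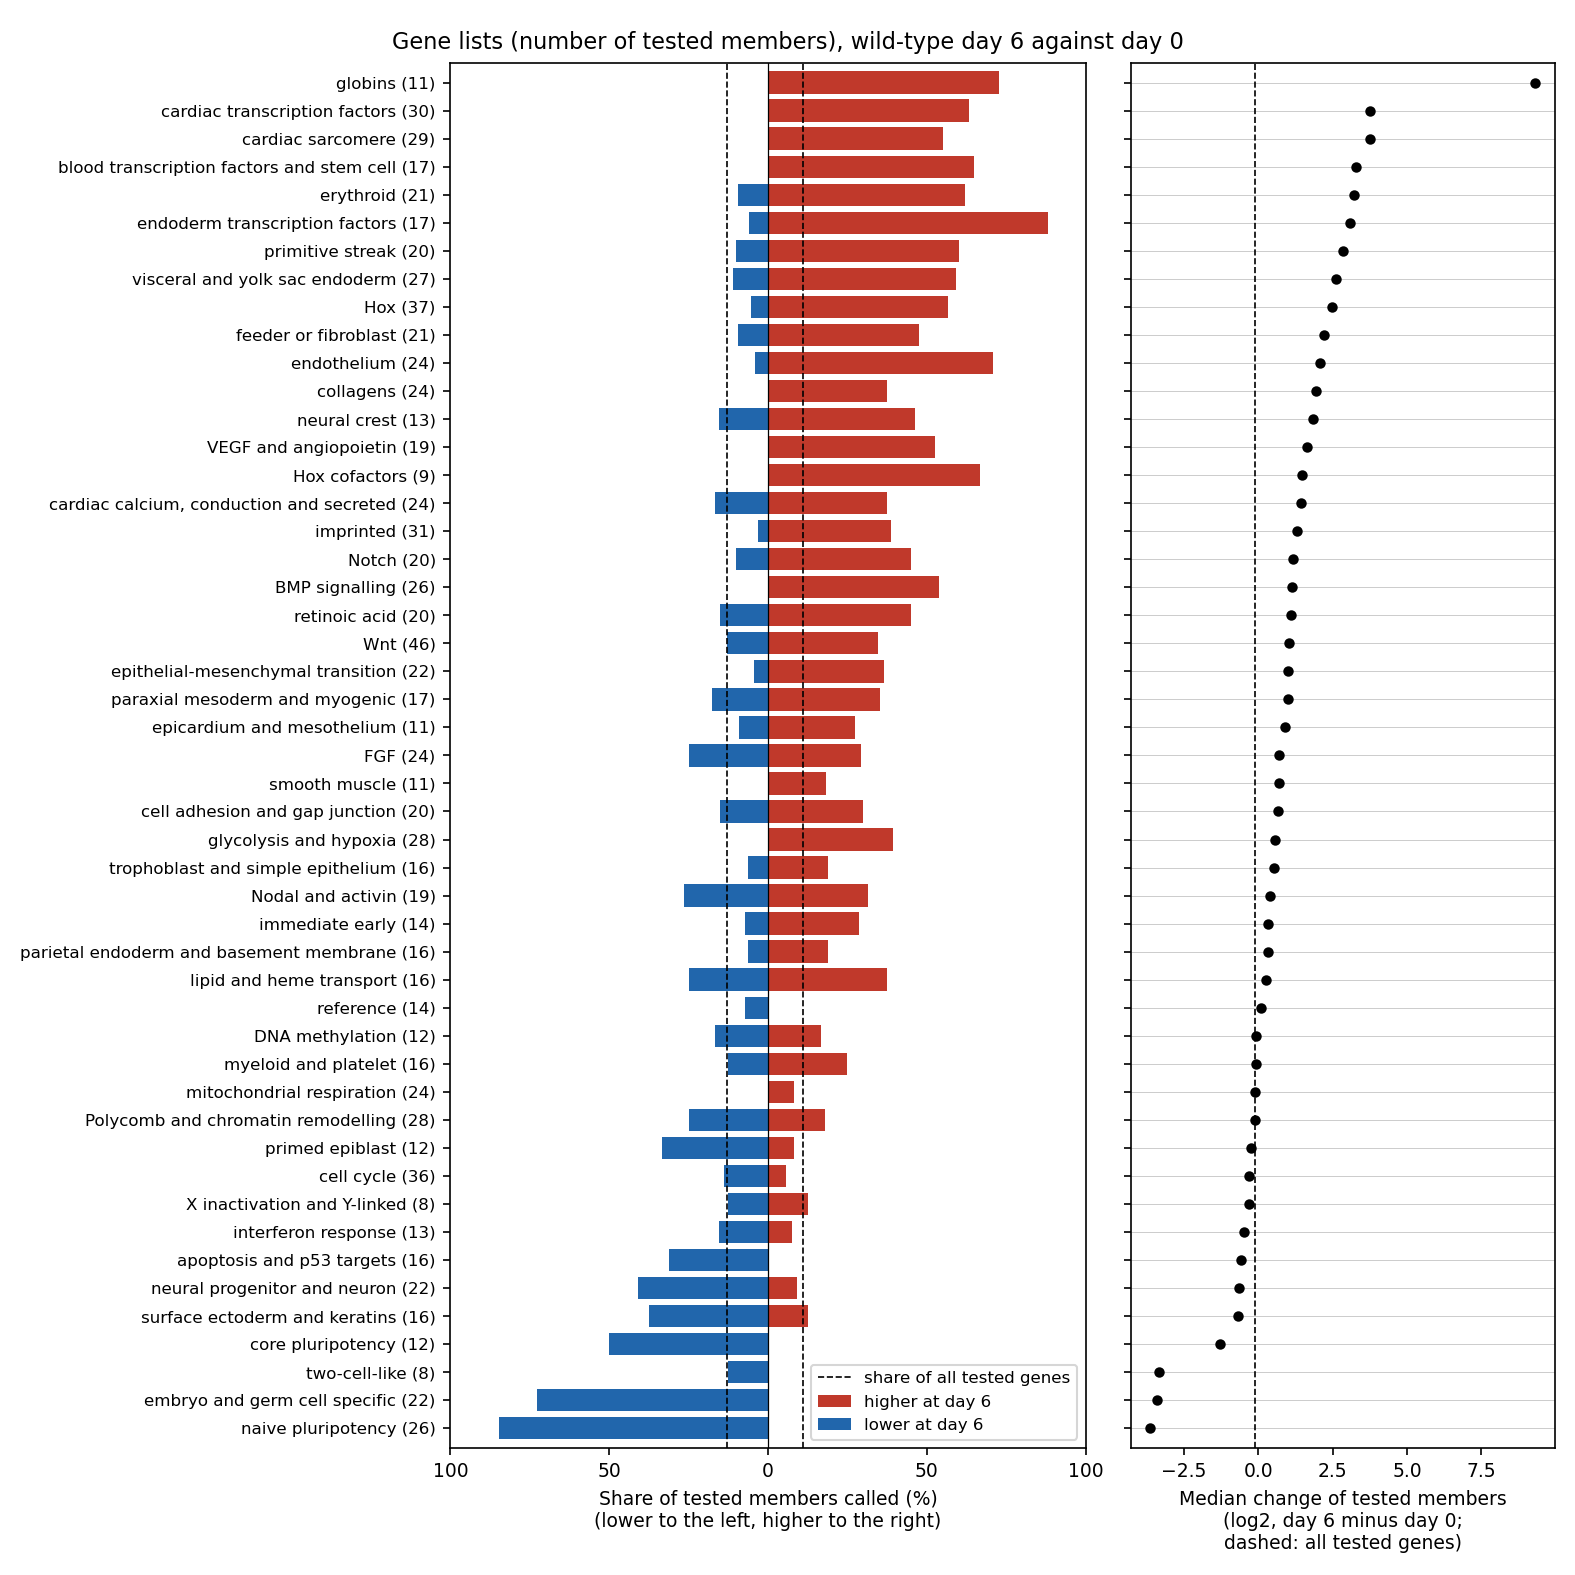
Share of the tested members of each gene list that was called higher (red, to the right) or lower (blue, to the left) at day 6 in wild-type cells, with the number tested beside each name, and the median log2 change of the tested members (right panel). Dashed lines give the same values over all tested genes (11.1% higher, 12.9% lower, median -0.12); globins top the list at a median of 9.32, and naive pluripotency genes are last at -3.63.

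The naive pluripotency genes fell almost as a group. Of 26 members, all tested, 22 were called lower and none higher, with a median change of -3.63. Zfp42 (Rex1), a zinc-finger gene used as a mark of the naive state, read 6.14 and 6.11 at day 0 and 1.22 and 1.03 at day 6, a change of -5.0 (SE 0.37, adjusted p = 0.000593). Esrrb, an orphan nuclear receptor of the network, read 5.27 and 6.51 at day 0 and 0.89 and 1.1 at day 6, a change of -4.9 (SE 0.44, adjusted p = 0.000975). Nanog, the homeobox factor at its centre, read 6.07 and 6.46 at day 0 and 3.5 and 2.93 at day 6, so both day 6 arrays stayed above their 75th percentile, 8.28-fold (adjusted p = 0.000985) below day 0. Its passing probes disagreed, with changes from -3.56 to 1.62, and the value given is that of the brightest. Klf4, a Krüppel-like factor, read 3.09 and 5.06 at day 0 and 0.87 and 1.41 at day 6, a change of -2.94 (SE 0.60, adjusted p = 0.015), with its day 0 replicates further apart than its day 6 replicates. For all 4 genes both day 6 arrays lay below both day 0 arrays. Klf4 lost its call without day 6 replicate 1 or day 6 replicate 2 (highest adjusted p = 0.0858). Klf4 was not called with the 4 wild-type arrays alone (adjusted p = 0.0571).

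Other deep falls in that list were of Gdf3, a TGF-beta family ligand (44.6-fold), the growth-promoting cofactor Tcl1 (40.2-fold), the nuclear receptor Nr0b1 or Dax1 (37-fold) and Dppa2 (26.8-fold), a chromatin factor of early embryos, with adjusted p of 0.000398 to 0.00113. Fgf4, the ligand through which ES cells prime themselves for differentiation, read 5.03 and 4.81 at day 0 and 1.12 and 0.84 at day 6. Tdh, a threonine-degrading enzyme on which mouse ES cells depend, fell from 7.01 and 7.32 to 3.31 and 3.27, above the 75th percentile of each array throughout. The other called members were Klf2 (-2.38, adjusted p = 0.00324), Klf5 (-3.5, adjusted p = 0.00229), Tfcp2l1 (-3.4, adjusted p = 0.0127), Nr5a2 (-3.76, adjusted p = 0.00163), Dppa4 (-4.08, adjusted p = 0.000366) and Dppa5a (-2.31, adjusted p = 0.000918). Further calls were Fbxo15 (-4.31, adjusted p = 0.00167), Utf1 (-4.12, adjusted p = 0.000615), Zfp296 (-4.16, adjusted p = 0.000615), Gbx2 (-3.25, adjusted p = 0.013), Manba (-2.41, adjusted p = 0.00407) and Tdgf1 (-2.77, adjusted p = 0.0142). The 4 members that were not called were Tbx3 (2.58 and 4.5 at day 0 and 2.93 and 3.45 at day 6), Prdm14 (0.91 and 2.28 at day 0 and -1.18 and -1.48 at day 6), Dppa3 (3.02 and -0.60 at day 0 and -0.56 and -0.95 at day 6) and Pecam1 (-0.53 and -1.23 at day 0 and -1.66 and -1.52 at day 6). Tbx3 is also a factor of the developing heart, and Pecam1 also marks vessels. Tfcp2l1 lost its call without day 6 replicate 1 (adjusted p = 0.0767). Gbx2 lost its call without day 6 replicate 1 or day 6 replicate 2 (highest adjusted p = 0.0779). Gbx2 was not called with the 4 wild-type arrays alone (adjusted p = 0.0526). Tdgf1 lost its call without day 0 replicate 2 or day 6 replicate 2 (highest adjusted p = 0.0918). Prdm14 was called with normexp background correction, with trended and robust variances, with the 4 wild-type arrays alone or with only genes above background on all 8 arrays tested (highest adjusted p = 0.0464). Dppa3 was called without day 0 replicate 2 (adjusted p = 0.0325).

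Genes of pluripotency that naive and primed cells share fell in part. In the core list, 6 of 12 were called lower and none higher, with a median of -1.29. Pou5f1 read 5.66 and 4.99 at day 0 and 3.39 and 2.47 at day 6, a change of -2.39 (SE 0.43, adjusted p = 0.0102). Sox2 read 3.12 and 3.88 at day 0 and 0.47 and 0.19 at day 6, a change of -3.17 (SE 0.35, adjusted p = 0.00182). L1td1, an RNA-binding protein, fell 8.79-fold, and Mybl2, a cell cycle factor, 6.26-fold, while Rif1 fell 2.8-fold. Lin28a, which blocks let-7 maturation, read 5.27 and 5.04 at day 0 and 4.73 and 4.75 at day 6, and Sall4 read 4.21 and 4.06 at day 0 and 3.36 and 3.12 at day 6, and neither was called (adjusted p = 0.262 and 0.0559). Among 12 primed epiblast genes, 4 were called lower and 1 higher. Fgf5, the marker of the primed state, read -0.43 and -0.14 at day 0 and 2.76 and 2.35 at day 6 and was not called (adjusted p = 0.103). Otx2 (0.69) and Dnmt3b (-0.06) were not called either, while the POU factor Pou3f1 (-2.3), Foxd3 (-3.44) and the FGF-responsive ETS factors Etv4 (-1.82) and Etv5 (-1.73) were lower and Lef1 (1.38) was higher. Pou5f1 lost its call without day 6 replicate 2 (adjusted p = 0.066). Sall4 was called with normexp background correction, with trended and robust variances, with the 4 wild-type arrays alone, with the mean of its probes, with the replicate block or with only genes above background on all 8 arrays tested (highest adjusted p = 0.0487). Fgf5 was called with the 4 wild-type arrays alone (adjusted p = 0.00685). Foxd3 lost its call without day 0 replicate 2 or day 6 replicate 2 (highest adjusted p = 0.0708). Etv4 lost its call without day 0 replicate 2, day 6 replicate 1 or day 6 replicate 2 (highest adjusted p = 0.0956). Lef1 lost its call without day 0 replicate 1, day 6 replicate 1 or day 6 replicate 2 (highest adjusted p = 0.102). Primed epiblast genes called lower numbered 2 with day 0 replicate 2 left out and 2 with day 6 replicate 2 left out.

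**Figure D3:**
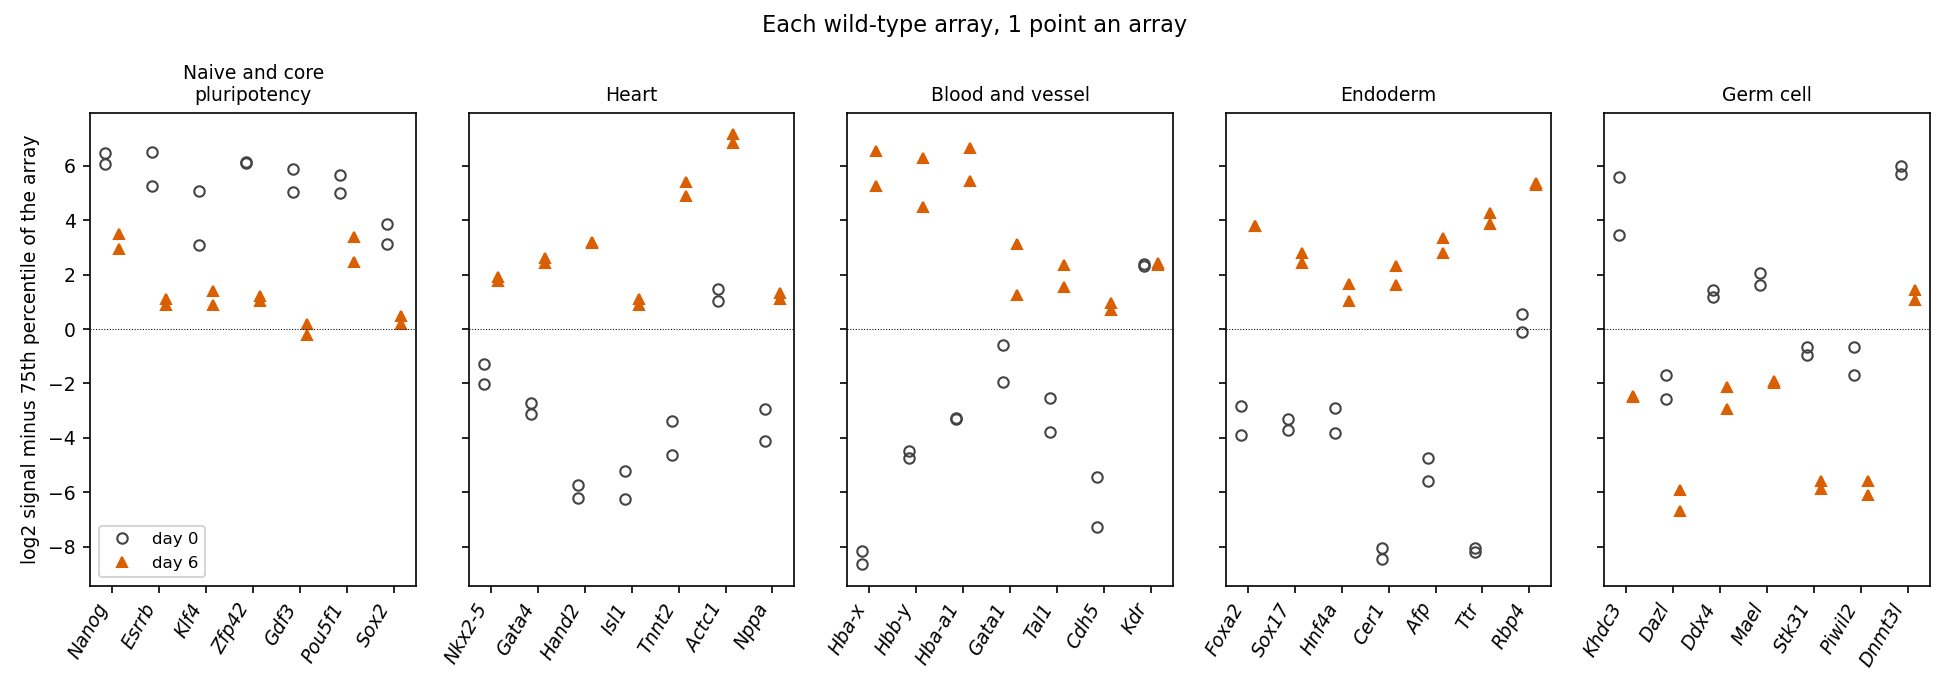
Log2 signal of 35 named genes on each wild-type array, relative to the 75th percentile of the array (dotted line at 0), with open circles for the 2 day 0 arrays and filled triangles for the 2 day 6 arrays. For most genes both arrays of a day lie on the same side of both arrays of the other; Kdr is the exception, with all 4 points of its brightest probe between 2.33 and 2.42, while its other passing probe, not drawn, changed by 4.74.

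Genes of the germ line and the early embryo were lower as well. Of 22 tested members, 16 were called lower and none higher, with a median of -3.40 (-2.79 with bounds in place of fitted values). Khdc3 (Filia), of the maternal complex of the egg, read 3.47 and 5.58 at day 0 and -2.48 and -2.5 at day 6, a fall of 129-fold that is among the 4 falls of over 64-fold (adjusted p = 0.00386). Dnmt3l, a catalytically inactive partner of the de novo DNA methyltransferases, read 6.01 and 5.7 at day 0 and 1.42 and 1.07 at day 6, a change of -4.61 (SE 0.42, adjusted p = 0.000986). Ddx4 (Vasa), a germ cell RNA helicase, read 1.45 and 1.19 at day 0 and -2.14 and -2.92 at day 6, a change of -3.85 (SE 0.35, adjusted p = 0.000995). Mael (Maelstrom), of the piRNA pathway, read 1.61 and 2.05 at day 0 and -1.9 and -1.99 at day 6, a change of -3.77 (SE 0.23, adjusted p = 0.00038). The kinase Stk31 read -0.95 and -0.65 at day 0 and -5.58 and -5.9 at day 6 and Piwil2, a PIWI protein, -1.7 and -0.67 at day 0 and -5.59 and -6.1 at day 6. Neither had a probe above background at day 6, and their falls were at least 21.1-fold (adjusted p = 0.000983) and at least 16.1-fold (adjusted p = 0.00139). Nlrp4f fell at least 11.2-fold and Ooep 2.81-fold. Khdc1a had no probe above background on any of the 4 arrays. Ooep lost its call without day 0 replicate 2, day 6 replicate 1 or day 6 replicate 2 (highest adjusted p = 0.0827).

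The sequence CACGTG, an E-box that reads the same on both strands, lay in the 250 bases before the start of 10 of 18 genes of that list with a promoter in the RefSeq table (55.6%), against 8.89% of 13829 tested genes with a promoter. Among all genes called lower the share was 9.41%. Members of the list count here whether called or not. This motif and those shown further on were among several counted over several lists, and the other counts are not reported here. The 3 promoters below, from RefSeq on GRCm38.p6, show where it lies in genes of the list that were called lower. Each is written 5′ to 3′ on the strand of the gene, in lower case with the E-box in capitals and ending at the base before the start. A match is a string of letters and was not tested for binding. In Ddx4 it begins 29 bases before the start (chr13:112652311-112652560, minus strand), in Stk31 55 bases (chr6:49395289-49395538, plus strand) and in Mael 223 bases (chr1:166238745-166238994, minus strand).
Ddx4: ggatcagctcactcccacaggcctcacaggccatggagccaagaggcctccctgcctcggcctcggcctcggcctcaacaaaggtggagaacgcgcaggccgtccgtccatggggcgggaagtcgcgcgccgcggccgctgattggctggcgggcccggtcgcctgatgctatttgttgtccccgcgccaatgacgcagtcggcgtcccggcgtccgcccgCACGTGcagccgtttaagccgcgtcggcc
Stk31: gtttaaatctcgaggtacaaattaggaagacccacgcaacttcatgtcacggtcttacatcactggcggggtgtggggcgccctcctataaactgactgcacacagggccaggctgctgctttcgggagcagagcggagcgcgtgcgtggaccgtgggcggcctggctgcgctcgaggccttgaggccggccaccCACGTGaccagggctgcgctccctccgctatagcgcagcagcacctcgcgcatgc
Mael: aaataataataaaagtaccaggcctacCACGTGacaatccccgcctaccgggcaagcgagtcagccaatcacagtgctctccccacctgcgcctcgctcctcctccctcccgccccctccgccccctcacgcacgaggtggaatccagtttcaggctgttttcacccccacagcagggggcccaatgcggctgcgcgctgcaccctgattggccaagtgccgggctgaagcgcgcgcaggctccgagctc

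The 2-cell-like genes, which rare ES cells switch on as a pulse, differed between the day 0 replicates, and 1 of 8 was called. Zscan4c read 3.25 and -1.33 at day 0 and -2.2 and -3.06 at day 6 and Zscan4f 4.97 and 0.14 at day 0 and -0.85 and -1.47 at day 6, so day 0 replicate 1 was far above day 0 replicate 2 and both were above day 6. Tcstv1 read -0.09 and -5.31 at day 0 and -6.11 and -4.96 at day 6, with day 0 replicate 2 no higher than day 6 replicate 2. The called member was Eif1a, a translation initiation factor, 1.99-fold lower (adjusted p = 0.0145). The part of day 0 replicate 1 in the level of the list was tested only by leaving arrays out. Zscan4 copies are near identical, so their probes can share signal. Without day 0 replicate 2, 6 members were called lower, Zscan4c and Zscan4f among them. Zscan4c and Zscan4f were called without day 0 replicate 2 (adjusted p = 0.00996 and 0.0187). Eif1a lost its call without day 0 replicate 1, day 6 replicate 1 or day 6 replicate 2 (highest adjusted p = 0.0964).

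Most primitive streak and early mesoderm genes rose. Of 20 tested members 12 were called higher and 2 lower, with a median of 2.83. Mesp1, the factor of the first heart-forming mesoderm, read -4.29 and -3.9 at day 0 and 3.25 and 2.55 at day 6, a change of 7.0 (SE 0.46, adjusted p = 0.000427). Lhx1, of the node and anterior mesendoderm, read -5.04 and -5.33 at day 0 and 2.23 and 1.6 at day 6, 137-fold (adjusted p = 0.000321) higher. Another passing probe of Lhx1 changed by 3.9. Eomes, a T-box factor of mesoderm and definitive endoderm, read -1.11 and -0.80 at day 0 and 2.03 and 1.43 at day 6, a change of 2.68 (SE 0.31, adjusted p = 0.00214). T (Brachyury), the factor of the streak itself, rose from 0.40 and 0.97 to 3.11 and 2.43, 4.25-fold (adjusted p = 0.0352). Mixl1 was 13.8-fold, Gsc 19.3-fold, Evx1 18.6-fold, Fgf8 14.2-fold and Cdx2 8.48-fold higher. Cer1, a secreted antagonist of Nodal, BMP and Wnt, read -8.05 and -8.47 at day 0 and 2.31 and 1.62 at day 6, at least 343-fold (adjusted p = 0.00321) higher. Against this, Nodal, the ligand that sets up the streak, fell 4.08-fold and its feedback inhibitor Lefty1 4.62-fold. T and Lefty1 lost their call when any 1 of the 4 arrays was left out (highest adjusted p = 0.171 and 0.106). T was not called with the replicate block (adjusted p = 0.0524). Mixl1 lost its call without day 0 replicate 1, day 0 replicate 2 or day 6 replicate 1 (highest adjusted p = 0.0963). Evx1 and Cdx2 lost their call without day 6 replicate 1 or day 6 replicate 2 (highest adjusted p = 0.0664 and 0.0771). Nodal lost its call without day 6 replicate 2 (adjusted p = 0.0609). Mixl1 stood above background on 1 of the 2 day 0 arrays, and with the other array at its lowest signal above background the change came to 13-fold.

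Among the transcription factors of the heart, 19 of 30 were called higher and none lower, with a median change of 3.77. Nkx2-5 itself read -1.27 and -2.03 at day 0 and 1.92 and 1.78 at day 6, a change of 3.5 (SE 0.76, adjusted p = 0.0191), 11.3-fold higher. Gata4, the zinc-finger factor that works with it, read -3.13 and -2.74 at day 0 and 2.44 and 2.63 at day 6, a change of 5.47 (SE 0.36, adjusted p = 0.000427). Hand2, a bHLH factor of the second heart field, rose from -5.73 and -6.21 to 3.17 and 3.19, 568-fold (adjusted p = 0.000244), and its relative Hand1, of the first heart field, 13.2-fold. Isl1, of second heart field progenitors, read -5.21 and -6.26 at day 0 and 1.09 and 0.89 at day 6, 106-fold (adjusted p = 0.000321). Tbx5, the T-box factor of the first field, had no probe above background at day 0 and rose at least 143-fold (adjusted p = 0.000986). Prdm6, a factor of smooth muscle and vessels, rose at least 377-fold (adjusted p = 0.000761) from the same state, Mef2c at least 31.1-fold, Gata6 144-fold and Tbx2 99.5-fold. For every one of these genes both day 6 arrays were above both day 0 arrays. Nkx2-5 lost its call without day 0 replicate 2, day 6 replicate 1 or day 6 replicate 2 (highest adjusted p = 0.0897). Tbx2 stood above background on 1 of the 2 day 0 arrays.

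Genes of the contractile apparatus rose too. Of 29 tested, 16 were called higher and none lower, with a median of 3.75 (3.37 with bounds). Their summed linear signal, relative to the 75th percentile of the array, was 73.8 and 30.1 at day 0 and 477 and 631 at day 6. Tnnt2, cardiac troponin T, read -3.38 and -4.62 at day 0 and 4.9 and 5.41 at day 6, a change of 9.15 (SE 1.15, adjusted p = 0.00296), 570-fold. Tnni1, the troponin I of embryonic heart, rose 272-fold, and the atrial light chains Myl7 and Myl4 117-fold and 78.1-fold. Nebl, a Z-disc protein, was at least 62.4-fold higher. Actc1, cardiac actin, read 1.47 and 1.04 at day 0 and 6.82 and 7.15 at day 6, a change of 5.73 (SE 1.46, adjusted p = 0.0321), so the separation of the days was wide and so was the error from the shared fit. Myh7 read 0.97 and -0.81 at day 0 and 5.23 and 5.74 at day 6, 42.3-fold (adjusted p = 0.0132) higher. Myh6, the alpha heavy chain, read 3.2 and 1.06 at day 0 and 5.37 and 5.62 at day 6 and was not called (adjusted p = 0.0688). Myl3 rose 53.8-fold. Myl7, Myl4 and Myh7 lost their call without day 0 replicate 2, day 6 replicate 1 or day 6 replicate 2 (highest adjusted p = 0.0634, 0.0735 and 0.0789). Actc1 lost its call when any 1 of the 4 arrays was left out (highest adjusted p = 0.138). Myh6 was called with normexp background correction, with the 4 wild-type arrays alone or with the mean of its probes (highest adjusted p = 0.0479). Myl3 lost its call without day 6 replicate 2 (adjusted p = 0.0606). Sarcomere genes called higher numbered 9 with day 6 replicate 1 left out and 8 with day 6 replicate 2 left out.

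A CArG box, the binding sequence of serum response factor, lay in the 250 bases before the start of 6 of 24 sarcomere genes with a promoter in the table (25%), searched on both strands, against 1.6% of tested genes and 1.61% of all genes called higher. Sarcomere genes count here whether called or not. Their median window held 4 CG pairs against 14 over tested genes, and the part of base composition was not tested. Both promoters shown have it within 61 bases of the start, from 47 bases before it in Actc1 (chr2:114052876-114053125, minus strand, GRCm38.p6) and from 61 in Myl7 (chr11:5898783-5899032, minus strand), with the box in capitals.
Actc1: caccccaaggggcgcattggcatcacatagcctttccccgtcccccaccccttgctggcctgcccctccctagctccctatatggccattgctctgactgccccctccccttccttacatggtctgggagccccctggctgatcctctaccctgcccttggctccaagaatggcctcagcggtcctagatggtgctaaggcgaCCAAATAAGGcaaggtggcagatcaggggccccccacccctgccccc
Myl7: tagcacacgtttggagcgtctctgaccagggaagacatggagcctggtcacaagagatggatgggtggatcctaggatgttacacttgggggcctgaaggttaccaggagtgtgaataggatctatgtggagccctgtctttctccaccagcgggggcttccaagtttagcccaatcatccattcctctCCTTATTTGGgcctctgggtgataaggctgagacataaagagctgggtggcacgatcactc

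Electrical and calcium-handling genes of the heart split. Of 24 tested, 9 were higher and 4 lower. Cacna1c, the pore of the L-type calcium channel, had no probe above background at day 0 and rose at least 39.7-fold (adjusted p = 0.00189), and Kcnj5, of the atrial potassium channel, rose 82-fold (adjusted p = 0.000429). Nppa, atrial natriuretic factor, read -2.95 and -4.1 at day 0 and 1.09 and 1.33 at day 6, 26.6-fold (adjusted p = 0.0132) higher. Hrc, a calcium-binding protein of the sarcoplasmic reticulum, was 10.6-fold and the connexin Gja5 7.43-fold higher, though another passing probe of Gja5 changed by -0.55. The ryanodine receptor Ryr2 (3.2) and the calcium pump Atp2a2 (0.57) were not called. Among the lower genes was Kcnj3, another subunit of the atrial channel (-2.0, adjusted p = 0.00472). Nppa lost its call without day 0 replicate 2, day 6 replicate 1 or day 6 replicate 2 (highest adjusted p = 0.0761). Ryr2 was called with normexp background correction or with the 4 wild-type arrays alone (highest adjusted p = 0.0166). Members called lower numbered 1 with day 0 replicate 1 left out, 2 with day 0 replicate 2 left out, 1 with day 6 replicate 1 left out and 2 with day 6 replicate 2 left out.

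Of 11 smooth muscle genes 2 were called higher and none lower. Tagln read 7.11 and 4.9 at day 0 and 5.95 and 6.44 at day 6, Acta2 5.18 and 3.17 at day 0 and 5.39 and 6.37 at day 6 and Cnn1 5.11 and 3.78 at day 0 and 4.27 and 4.66 at day 6, above the 75th percentile on every array and brighter in day 0 replicate 1 than in replicate 2, and none of the 3 was called. The called members were Synpo2 (2.87, adjusted p = 0.0327) and Des (1.5, adjusted p = 0.0499). In the epicardial list 3 of 11 were higher and 1 lower. Tcf21 rose 37.9-fold (adjusted p = 0.000398) and Bnc1 at least 53.3-fold (adjusted p = 0.000429), the retinoic acid enzyme Aldh1a2 rose 5.45-fold and Msln, mesothelin, fell 14.8-fold, while Wt1 (1.9 and 0.77 at day 0 and -0.48 and 0.54 at day 6) and Tbx18 (-5.41 and -6.76 at day 0 and -4.26 and -3.25 at day 6) were not called. Paraxial mesoderm had 6 of 17 higher and 3 lower, led by the forkhead factors Foxc2 (226-fold) and Foxc1 (33.3-fold) and by Pax9 (at least 26-fold). Tcf15 (-3.66), which ES cells also express as they prime, and the muscle fusion gene Mymx (-5.86) were lower. Synpo2 and Aldh1a2 lost their call without day 0 replicate 2, day 6 replicate 1 or day 6 replicate 2 (highest adjusted p = 0.157 and 0.0841). Des lost its call without day 0 replicate 1, day 6 replicate 1 or day 6 replicate 2 (highest adjusted p = 0.193). Des was not called with quantile normalization, with median scaling, in the deposited matrix or with the 4 wild-type arrays alone (highest adjusted p = 0.0939). Pax9 lost its call without day 6 replicate 1 or day 6 replicate 2 (highest adjusted p = 0.054). Tcf15 lost its call without day 6 replicate 2 (adjusted p = 0.0653). Mymx lost its call without day 6 replicate 1 (adjusted p = 0.0655). Tcf21 and Foxc2 stood above background on 1 of the 2 day 0 arrays, and with the other array at its lowest signal above background the changes came to 27-fold and 208-fold. Paraxial genes called higher numbered 2 with day 6 replicate 1 left out and 2 with day 6 replicate 2 left out, and those called lower 1 with day 6 replicate 1 left out and 1 with day 6 replicate 2 left out.

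Globins had the highest median change of the 49 lists. Of 11 tested, 8 were called higher and none lower, with a median of 9.32 (8.86 with bounds). Their summed linear signal went from 0.96 and 0.971 at day 0 to 432 and 945 at day 6. Hbb-bh1, an embryonic beta-like globin, read -2.1 and -3.0 at day 0 and 7.51 and 8.56 at day 6, 1530-fold (adjusted p = 0.000249) higher. Hbb-y, the other embryonic beta-like chain, read -4.73 and -4.5 at day 0 and 4.47 and 6.28 at day 6, 1020-fold (adjusted p = 0.000374) higher. Hba-x, embryonic zeta globin, had no probe above background at day 0 and read 5.26 and 6.54 at day 6, at least 5239-fold (adjusted p = 0.000244). The adult-type genes rose too, with Hba-a1 640-fold, Hba-a2 465-fold, Hbb-b1 at least 150-fold, Hbb-b2 at least 539-fold and Hbb-bt at least 383-fold, but these copies are near identical and their probes may share signal. Hbq1a (-1.04), Hbq1b (0.34) and Hbb-bh2 (0.79) were not called. All 11 globins were brighter in day 6 replicate 2 than in replicate 1, as were 19 of 21 erythroid genes, and the part of that array was tested only by leaving it out. That lean was not particular to red cell genes, with 12 of 14 reference and 21 of 24 respiration genes brighter there. Only 4 of 28 glycolysis and hypoxia genes were, and the share over all tested genes was not counted.

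Red cell genes rose as well, 13 of 21 tested being higher and 2 lower, with a median of 3.21 (2.41 with bounds). Under the alternatives listed at the end, the median without bounds ran from 0.57 to 3.72. Alas2, the first enzyme of erythroid haem synthesis, read -6.35 and -7.94 at day 0 and 1.36 and 2.83 at day 6, at least 375-fold (adjusted p = 0.000669). Ahsp, the chaperone of alpha globin, was at least 137-fold, and Kel at least 31.6-fold higher, both without a probe above background at day 0. Gata1, the master factor of red cells, read -0.58 and -1.94 at day 0 and 1.27 and 3.11 at day 6, 10.9-fold (adjusted p = 0.0361), and Klf1 read -2.25 and -2.54 at day 0 and 0.31 and 1.32 at day 6, 9.26-fold (adjusted p = 0.01). Nfe2 rose 32.5-fold and Slc4a1, band 3 of the membrane, 15.4-fold. Rhd (-2.03) and Car2 (-0.98) were lower. Gata1 and Car2 lost their call when any 1 of the 4 arrays was left out (highest adjusted p = 0.185 and 0.141). Gata1 was not called with the 4 wild-type arrays alone (adjusted p = 0.0517). Klf1 lost its call without day 6 replicate 2 (adjusted p = 0.0674).

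The GATA motif, AGATAA or TGATAA on either strand, lay in the 250 bases before the start of 15 of 23 globin and erythroid genes with a promoter in the table (65.2%), against 13.2% of tested genes and 14.9% of all genes called higher. Over all 27025 genes with a promoter the share was 18.8%. The median window held 4 CG pairs in this set, 14 over tested genes and 6 over all genes with a promoter. The part of base composition was not tested, and the set holds measured members whether called or not. The promoters shown are of 2 embryonic globins and of Alas2, with the motif in capitals. It begins 108 bases before the start in Hba-x (chr11:32276350-32276599, plus strand, GRCm38.p6), 162 in Hbb-y (chr7:103853208-103853457, minus strand) and 86 in Alas2 (chrX:150547167-150547416, plus strand). In Hbb-y and Alas2 the motif is on the opposite strand and so reads as its reverse complement.
Hba-x: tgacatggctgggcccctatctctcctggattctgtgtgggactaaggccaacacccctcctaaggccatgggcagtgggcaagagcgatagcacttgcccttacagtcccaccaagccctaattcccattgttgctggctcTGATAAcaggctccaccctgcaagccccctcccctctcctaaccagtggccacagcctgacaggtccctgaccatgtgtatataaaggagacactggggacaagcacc
Hbb-y: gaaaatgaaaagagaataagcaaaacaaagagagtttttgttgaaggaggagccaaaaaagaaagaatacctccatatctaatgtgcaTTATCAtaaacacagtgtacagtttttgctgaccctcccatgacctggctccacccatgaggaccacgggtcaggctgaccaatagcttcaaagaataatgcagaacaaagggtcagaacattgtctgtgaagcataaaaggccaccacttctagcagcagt
Alas2: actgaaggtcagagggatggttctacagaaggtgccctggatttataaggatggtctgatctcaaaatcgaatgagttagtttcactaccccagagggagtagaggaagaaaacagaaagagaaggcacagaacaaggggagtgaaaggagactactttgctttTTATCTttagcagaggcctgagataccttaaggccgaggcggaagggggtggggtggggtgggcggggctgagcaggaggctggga

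Of the factors that make blood, 11 of 17 were higher and none lower (median 3.27, and 2.46 with bounds). Tal1 (Scl), needed for all blood, read -2.55 and -3.79 at day 0 and 1.54 and 2.37 at day 6, 34.9-fold (adjusted p = 0.00588), and its partner Lmo2 and its relative Lyl1 rose 19.4-fold and 29.2-fold. The ETS factor Fli1, read -5.29 and -8.76 at day 0 and 0.53 and 1.28 at day 6, was 244-fold (adjusted p = 0.00488) higher, and Cbfa2t3 24.4-fold. Another passing probe of Cbfa2t3 changed by 1.1. Runx1, of definitive blood, read -0.63 and -1.79 at day 0 and -0.98 and 0.55 at day 6, with overlapping days, and was not called. In the myeloid and platelet list 4 of 16 were higher and 2 lower. The platelet genes Pf4 (at least 23.4-fold) and Gp9 (at least 7.22-fold) and the granule enzyme Mpo (8.13-fold) and Tyrobp (at least 8.81-fold) were higher from little or no signal, while Laptm5 (-4.09) and Coro1a (-1.82) were lower, and the macrophage receptor Csf1r (0.34) was not called. Gp9 was not called with normexp background correction (adjusted p = 0.0522). Mpo and Coro1a lost their call without day 6 replicate 2 (adjusted p = 0.0567 and 0.0536). Fli1 stood above background on 1 of the 2 day 0 arrays, and with the other array at its lowest signal above background the change came to 129-fold. Blood factors called higher numbered 7 with day 6 replicate 2 left out.

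Endothelial genes rose, 17 of 24 being higher and 1 lower, with a median of 2.08. Cdh5, VE-cadherin, read -5.42 and -7.26 at day 0 and 0.70 and 0.96 at day 6, a change of 7.17 (SE 0.58, adjusted p = 0.000713). Tie1 was 43.7-fold, Icam2 92.6-fold, and Emcn at least 20.3-fold higher, with Ramp2 at 4.26 on the log2 scale. Tek, the angiopoietin receptor, rose 3.15-fold. Kdr, the VEGF receptor and mark of early mesoderm, read 2.33 and 2.4 at day 0 and 2.42 and 2.34 at day 6 by its brightest probe, with overlapping days, and was not called, while its other passing probe changed by 4.74. Eng, endoglin, which ES cells express, was 2.46-fold lower. In the VEGF and angiopoietin list 10 of 19 were higher and none lower. Pdgfra, a receptor of mesoderm, read -4.91 and -5.28 at day 0 and 2.72 and 2.73 at day 6, 226-fold (adjusted p = 0.000249), Nrp1 rose 71.8-fold, Angpt1 28.6-fold and Aplnr 10.2-fold. Flt1 was 9.68-fold higher by its brightest probe, with changes of its passing probes from -0.56 to 3.28. Tek and Flt1 lost their call without day 6 replicate 2 (adjusted p = 0.0763 and 0.0508). Kdr was called with the mean of its probes (adjusted p = 0.0171). Eng lost its call when any 1 of the 4 arrays was left out (highest adjusted p = 0.143). Cdh5 stood above background on 1 of the 2 day 0 arrays, and with the other array at its lowest signal above background the change came to 128-fold. Endothelial genes called higher numbered 11 with day 6 replicate 2 left out. VEGF list genes called higher numbered 6 with day 6 replicate 2 left out.

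Endoderm genes rose as well. Of 17 tested transcription factors 15 were higher and 1 lower, with a median of 3.08 (2.68 with bounds). Foxa2, of endoderm and node, read -2.82 and -3.88 at day 0 and 3.79 and 3.78 at day 6, a change of 7.13 (SE 0.56, adjusted p = 0.000628). Sox17 read -3.31 and -3.7 at day 0 and 2.42 and 2.79 at day 6, a change of 6.11 (SE 0.41, adjusted p = 0.000431). Gata6 rose 144-fold, Foxa1 52.1-fold and Hnf4a, of visceral endoderm, 26.1-fold. Of 27 secretory and transport genes of the visceral and yolk sac endoderm, 16 were higher and 3 lower (median 2.60, and 2.31 with bounds). Ttr, transthyretin, had no probe above background at day 0 and read 3.85 and 4.26 at day 6, at least 1460-fold (adjusted p = 0.000244). Afp, alpha-fetoprotein, read -4.73 and -5.58 at day 0 and 3.35 and 2.81 at day 6, 301-fold (adjusted p = 0.00315). Fgb, fibrinogen beta, rose at least 175-fold, S100g 417-fold, retinol-binding protein Rbp4 34.2-fold and Apoa1 at least 22.1-fold. Foxa1 lost its call without day 6 replicate 1 (adjusted p = 0.0518). S100g stood above background on 1 of the 2 day 0 arrays. Endoderm factors called higher numbered 9 with day 6 replicate 1 left out and 9 with day 6 replicate 2 left out.

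Some yolk sac genes did not rise. Apoa2 read 1.54 and 1.78 at day 0 and 1.6 and 1.45 at day 6 and was not called. The endocytic receptor Lrp2 (-2.18), Amn (-1.69) and transferrin, Trf (-2.87), were lower, each having been measured on both day 0 arrays. In the list of parietal endoderm and basement membrane 3 of 16 were higher and 1 lower. Plat, tissue plasminogen activator, rose 9.18-fold and Lama4 10.6-fold, and Lama1 (3.61 and 3.71 at day 0 and 3.62 and 4.34 at day 6) was not called. Lrp2 lost its call without day 6 replicate 1 or day 6 replicate 2 (highest adjusted p = 0.112). Lrp2 was not called with the 4 wild-type arrays alone (adjusted p = 0.0642). Amn lost its call without day 6 replicate 1 (adjusted p = 0.0583). Plat lost its call without day 0 replicate 2, day 6 replicate 1 or day 6 replicate 2 (highest adjusted p = 0.0941). Yolk sac genes called lower numbered 1 with day 6 replicate 1 left out. Parietal endoderm genes called higher numbered 5 with day 0 replicate 1 left out, 1 with day 0 replicate 2 left out, 1 with day 6 replicate 1 left out and 1 with day 6 replicate 2 left out.

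Neural genes were more often lower than higher. Of 22 tested, 2 were higher and 9 lower, with a median of -0.64. The early neural factors Sox1 (-2.41 and -1.24 at day 0 and -2.03 and -2.15 at day 6) and Pax6 (-1.98 and -4.61 at day 0 and -3.01 and -3.22 at day 6) were not called, nor was Nes (-0.69). Pou4f2, a POU factor of sensory neurons, read 0.99 and 1.8 at day 0 and -5.42 and -4.95 at day 6, at least 95.6-fold (adjusted p = 0.0086) lower. Neurod1 read -1.96 and -1.39 at day 0 and -6.65 and -6.98 at day 6 and had no probe above background at day 6 (adjusted p = 0.000374), Syt4 fell at least 3.02-fold, Elavl3 5.25-fold and Tubb3 2.57-fold. The exceptions were Nkx6-1 (6.01-fold higher) and the Notch target Hes5 (3.59-fold higher). Pou4f2 lost its call without day 6 replicate 1 (adjusted p = 0.0516). Tubb3 lost its call without day 0 replicate 1, day 6 replicate 1 or day 6 replicate 2 (highest adjusted p = 0.132). Tubb3 was not called with the 4 wild-type arrays alone (adjusted p = 0.0525). Hes5 lost its call without day 0 replicate 2 or day 6 replicate 1 (highest adjusted p = 0.072). Neural genes called lower numbered 4 with day 6 replicate 1 left out.

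Neural crest markers had 6 of 13 higher and 2 lower. Sox9, of cartilage and crest, read -6.3 and -5.71 at day 0 and 0.00 and 0.03 at day 6, a change of 6.02 (SE 0.32, adjusted p = 0.000321), and Snai2 and Twist1 rose 32.4-fold and 25.7-fold. These 3 genes are also active in mesoderm. Sox10 (-2.32 and -2.29 at day 0 and -2.29 and -2.34 at day 6) and Tfap2a (-1.89 and -3.49 at day 0 and -1.91 and -2.01 at day 6), which define crest more closely, were not called, and Ngfr (-2.5) was lower. In surface ectoderm 2 of 16 were higher and 6 lower, Krt15 (2.98) among the first and Grhl3 (-2.45), Krt17 (-2.72) and Perp (-2.04) among the second. Trophoblast genes had 3 of 16 higher and 1 lower, with Tfap2c (-2.35), which naive cells also express, lower. Ngfr and Krt17 lost their call without day 6 replicate 1 or day 6 replicate 2 (highest adjusted p = 0.0649 and 0.0624). Krt15 lost its call without day 0 replicate 2, day 6 replicate 1 or day 6 replicate 2 (highest adjusted p = 0.127). Perp lost its call without day 0 replicate 1, day 6 replicate 1 or day 6 replicate 2 (highest adjusted p = 0.121). Sox9 stood above background on 1 of the 2 day 0 arrays, and with the other array at its lowest signal above background the change came to 58.2-fold. Surface ectoderm genes called lower numbered 2 with day 0 replicate 1 left out, 1 with day 6 replicate 1 left out and 1 with day 6 replicate 2 left out. Trophoblast genes called higher numbered 7 with day 0 replicate 1 left out and 1 with day 6 replicate 2 left out.

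Several genes of mesenchyme rose. Of 22 tested genes of the epithelial-mesenchymal transition 8 were higher and 1 lower. N-cadherin, Cdh2, read 2.02 and 0.96 at day 0 and 4.19 and 4.51 at day 6, 7.24-fold (adjusted p = 0.0156), and Snai1 rose 3.8-fold. E-cadherin, Cdh1, read 4.95 and 4.02 at day 0 and 4.18 and 3.84 at day 6 and was not called, while Epcam was 1.95-fold lower. Of 24 collagens 9 were higher and none lower, led by Col26a1 (80.9-fold) and Col9a1 (75.6-fold), the second with a passing probe that changed by -0.29. Col1a1 read 3.81 and 1.94 at day 0 and 3.28 and 4.11 at day 6, and its days overlapped. In the feeder or fibroblast list 10 of 21 were higher and 2 lower, with Prrx1, a homeobox factor of mesenchyme, 59.2-fold higher and Mfap5, a microfibril protein, 17.3-fold lower. The summed signal of that list was 105 and 87.6 at day 0 and 179 and 228 at day 6. Of the adhesion genes 6 of 20 were higher and 3 lower, including Itga4 (3.56) and Icam1 (-3.37). Cdh2 and Snai1 lost their call without day 0 replicate 2, day 6 replicate 1 or day 6 replicate 2 (highest adjusted p = 0.092 and 0.11). Epcam lost its call when any 1 of the 4 arrays was left out (highest adjusted p = 0.175). Epcam was not called with median scaling (adjusted p = 0.0614). With the 4 wild-type arrays alone 13 transition genes were called higher. Transition genes called higher numbered 5 with day 0 replicate 2 left out, 3 with day 6 replicate 1 left out and 3 with day 6 replicate 2 left out. Collagens numbered 4 with day 6 replicate 1 left out and 4 with day 6 replicate 2 left out. Fibroblast genes numbered 6 with day 0 replicate 2 left out, 5 with day 6 replicate 1 left out and 4 with day 6 replicate 2 left out. Adhesion genes numbered 3 with day 6 replicate 1 left out and 3 with day 6 replicate 2 left out.

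Hox genes, which set position along the body axis, rose in all 4 clusters. Of 37 tested, 21 were higher and 2 lower, with a median of 2.46. In the Hoxb cluster every gene from Hoxb1 to Hoxb6 was called, and Hoxb2 read -4.46 and -5.69 at day 0 and 2.73 and 3.06 at day 6, a change of 7.97 (SE 0.50, adjusted p = 0.000384). Hoxb1 read -5.96 and -7.18 at day 0 and -0.07 and -0.14 at day 6, a change of 6.46 (SE 0.50, adjusted p = 0.000618). Hoxb4 rose 39.7-fold, Hoxb5 70.4-fold, Hoxb3 18.5-fold, Hoxb6 19.3-fold and Hoxb8 23.2-fold. Hoxb7 (1.83), Hoxb9 (-0.49) and Hoxb13 (-1.95) were not called. In the Hoxa cluster Hoxa2 and Hoxa3 rose 23.5-fold and 15.9-fold. Hoxa4 (-4.07 and -3.83 at day 0 and -4.17 and -3.83 at day 6) was not called. Hoxb5 and Hoxb6 lost their call without day 6 replicate 2 (adjusted p = 0.0513 and 0.0704). Hoxb8 lost its call without day 6 replicate 1 or day 6 replicate 2 (highest adjusted p = 0.09). Hoxb1, Hoxb5 and Hoxa2 stood above background on 1 of the 2 day 0 arrays, and with the other array at its lowest signal above background the changes came to 80.6-fold, 62.2-fold and 16.3-fold.

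In the rest of the Hoxa cluster Hoxa6 at -1.66, Hoxa7 at 0.35, Hoxa9 at -0.16, Hoxa10 at 1.79 and Hoxa11 at 2.46 were not called. Hoxa13, read -7.51 and -7.11 at day 0 and -5.8 and -4.09 at day 6, was called higher (adjusted p = 0.0285) although only 1 day 6 array stood above background. In the Hoxc cluster Hoxc9 was 29.6-fold, Hoxc6 13.7-fold, Hoxc4 6.77-fold, Hoxc8 at least 2.42-fold and Hoxc5 at least 2.53-fold higher, Hoxc8 being above background on 1 day 6 array. Hoxc10 (2.28) and Hoxc11 (0.74) were not called. At the posterior end of that cluster Hoxc13 was at least 6.41-fold (adjusted p = 0.00191) and Hoxc12 at least 1.56-fold (adjusted p = 0.0445) lower, neither being above background at day 6. In the Hoxd cluster Hoxd1 read -5.4 and -5.14 at day 0 and -0.67 and -0.84 at day 6, a change of 4.52 (SE 0.20, adjusted p = 0.000244), and Hoxd4 38.1-fold, Hoxd9 37.7-fold, Hoxd8 18.9-fold and Hoxd3 at least 2.47-fold were higher, Hoxd3 being above background on 1 day 6 array. Hoxd10 (1.07), Hoxd11 (0.22) and Hoxd13 (-0.72) were not called. Hoxa6 was called without day 0 replicate 2 (adjusted p = 0.00648). Hoxa13 lost its call without day 0 replicate 1, day 0 replicate 2 or day 6 replicate 2 (highest adjusted p = 0.111). Hoxa13 was not called with normexp background correction, with the 4 wild-type arrays alone or with the mean of its probes (highest adjusted p = 0.189). Hoxc9 lost its call without day 0 replicate 2 or day 6 replicate 2 (highest adjusted p = 0.0642). Hoxc8 and Hoxc5 lost their call without day 0 replicate 1, day 6 replicate 1 or day 6 replicate 2 (highest adjusted p = 0.156 and 0.0991). Hoxc8, Hoxc5 and Hoxd3 were not called with normexp background correction (adjusted p = 0.168, 0.137 and 0.297). Hoxc12 lost its call when any 1 of the 4 arrays was left out (highest adjusted p = 0.236). Hoxc12 was not called with normexp background correction, with trended and robust variances or with the 4 wild-type arrays alone (highest adjusted p = 0.238). Hoxd4 lost its call without day 6 replicate 1 or day 6 replicate 2 (highest adjusted p = 0.0615). Hoxd4, Hoxd9 and Hoxd8 stood above background on 1 of the 2 day 0 arrays, and with the other array at its lowest signal above background the changes of Hoxd4 and Hoxd9 came to 21.3-fold and 26.1-fold. Hox genes called higher numbered 13 with day 6 replicate 2 left out, and those called lower 1 with day 0 replicate 1 left out, 1 with day 6 replicate 1 left out and 1 with day 6 replicate 2 left out.

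**Figure D4:**
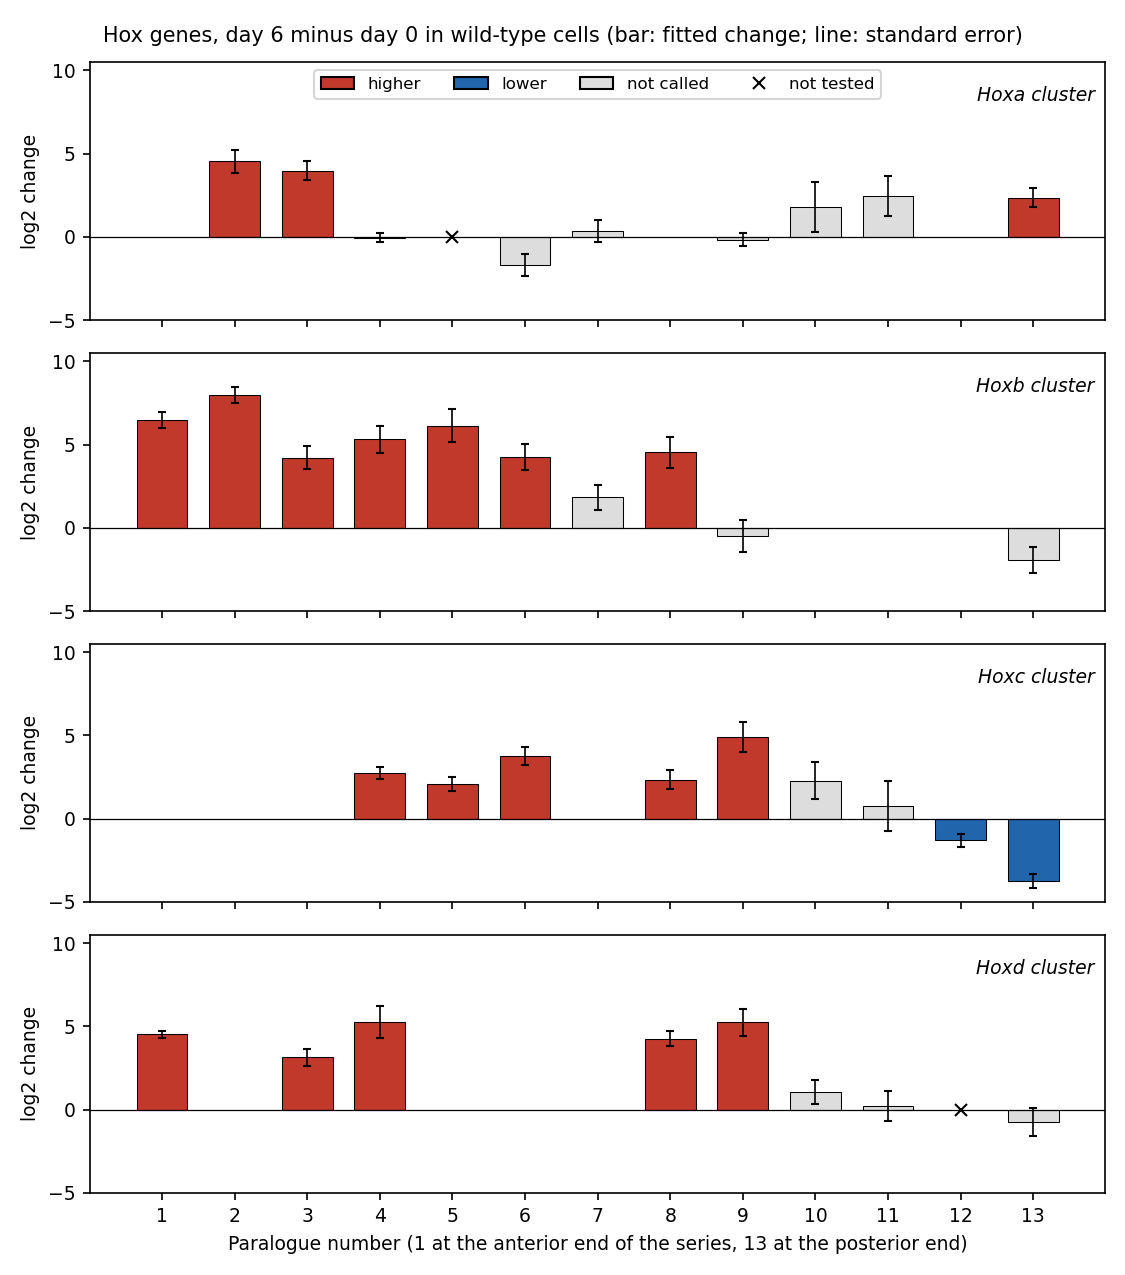
Fitted log2 change of the Hox genes described here from day 0 to day 6 in wild-type cells (bars, with the standard error as a line), by cluster and by paralogue number along the horizontal axis; red is higher, blue lower, grey not called and a cross not tested, and a position left blank holds no gene described here. Hoxb1 to Hoxb6 stand between 4.21 and 7.97, while Hoxc13 lies at -3.75.

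The TALE partners of Hox proteins rose as well, 6 of 9 being higher and none lower. Meis2 read -0.95 and -3.47 at day 0 and 3.12 and 3.27 at day 6, a change of 5.4 (SE 0.78, adjusted p = 0.00485), and Meis1 read 0.09 and -2.1 at day 0 and 4.15 and 4.13 at day 6, a change of 5.14 (SE 0.65, adjusted p = 0.00299). At day 0 replicate 1 was the brighter of the pair for both. Partners called higher numbered 3 with day 6 replicate 2 left out.

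Among signalling genes, BMP members rose. Of 26 BMP genes 14 were higher and none lower. The ligands Bmp2 and Bmp5 rose 27-fold and at least 35.2-fold, with Bmp2 reading -1.18 and -2.63 at day 0 and 2.74 and 2.96 at day 6. Bmp4, already bright, read 3.81 and 4.75 at day 0 and 5.31 and 5.26 at day 6 and was not called. The receptor-activated Smad9 rose at least 12.9-fold and the target genes Msx1 and Msx2 11.1-fold and 11.7-fold. Of 19 Nodal and activin genes 6 were higher and 5 lower. The co-receptor Cfc1 (Cryptic) read 0.23 and -1.91 at day 0 and 5.27 and 5.03 at day 6, 63.8-fold (adjusted p = 0.00416) higher, while its relative Tdgf1 (Cripto) was among the naive genes that fell. Inhbb, the activin B subunit, read 0.30 and 4.05 at day 0 and -4.89 and -4.02 at day 6, 98.7-fold (adjusted p = 0.00952) lower. Bmp2 lost its call without day 6 replicate 2 (adjusted p = 0.057). Smad9 and Msx1 lost their call without day 0 replicate 2, day 6 replicate 1 or day 6 replicate 2 (highest adjusted p = 0.0979 and 0.0787). Inhbb lost its call without day 6 replicate 1 (adjusted p = 0.0577). BMP genes called higher numbered 7 with day 0 replicate 2 left out, 4 with day 6 replicate 1 left out and 6 with day 6 replicate 2 left out. Nodal genes called higher numbered 3 with day 6 replicate 1 left out and 2 with day 6 replicate 2 left out, and those called lower 3 with day 0 replicate 2 left out, 3 with day 6 replicate 1 left out and 2 with day 6 replicate 2 left out.

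Of 46 Wnt genes 16 were higher and 6 lower. Wnt2, a ligand of heart and lung mesoderm, had no probe above background at day 0 and rose at least 93.6-fold (adjusted p = 0.000244). Antagonists rose as well, with Dkk1 reading -3.57 and -4.63 at day 0 and 2.21 and 2.2 at day 6, 78.7-fold (adjusted p = 0.000396), Frzb 140-fold and Sfrp5 36-fold. Rspo3, a ligand that amplifies Wnt, and its receptor Lgr5 rose 33.9-fold and 39.3-fold. Wnt7b (-2.87) and the antagonist Sfrp4 (-3.01) were lower. Of 24 FGF genes 7 were higher and 6 lower. The ligand of heart and limb Fgf10 read -3.99 and -3.76 at day 0 and 0.89 and 0.61 at day 6, 24.6-fold (adjusted p = 0.000316) higher, and Fgf3 rose 12.8-fold. Fgf17 and Fgf18 fell at least 8.05-fold and 7.76-fold, and the feedback inhibitor Spry4 7.29-fold. Wnt7b lost its call without day 6 replicate 1 or day 6 replicate 2 (highest adjusted p = 0.0603). Sfrp4 lost its call without day 6 replicate 2 (adjusted p = 0.0713). Frzb stood above background on 1 of the 2 day 0 arrays, and with the other array at its lowest signal above background the change came to 131-fold. Wnt genes called higher numbered 9 with day 6 replicate 1 left out and 9 with day 6 replicate 2 left out, and those called lower 3 with day 0 replicate 2 left out, 1 with day 6 replicate 1 left out and 0 with day 6 replicate 2 left out. FGF genes called higher numbered 4 with day 0 replicate 2 left out, 3 with day 6 replicate 1 left out and 3 with day 6 replicate 2 left out. With the replicate block 3 Wnt genes were lower.

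Of 20 retinoic acid genes 9 were higher and 3 lower. The synthesis enzyme Aldh1a2 was among the epicardial genes that rose, and the enzymes of breakdown Cyp26a1 and Cyp26b1 rose 25.3-fold and 12.7-fold. Rarb, a receptor that is itself a target of retinoic acid, read -3.89 and -2.94 at day 0 and 1.74 and 1.49 at day 6, 32.6-fold (adjusted p = 0.00419). Rarg, the receptor of ES cells, fell 5.23-fold, and Stra8, a germ cell target, read -0.25 and 3.03 at day 0 and -3.96 and -3.8 at day 6, 38.6-fold (adjusted p = 0.0235) lower. Of 20 Notch genes 9 were higher and 2 lower. The targets Hey1, Hey2 and Heyl rose 14-fold, 19.6-fold and at least 7.12-fold and the vessel ligand Dll4 at least 12.2-fold, while Jag2 (-1.62) and the DNA-binding partner Rbpj (-1.01) were lower. Stra8 lost its call without day 0 replicate 2, day 6 replicate 1 or day 6 replicate 2 (highest adjusted p = 0.101). Jag2 lost its call without day 0 replicate 1, day 6 replicate 1 or day 6 replicate 2 (highest adjusted p = 0.0943). Rbpj lost its call when any 1 of the 4 arrays was left out (highest adjusted p = 0.11). Hey2 stood above background on 1 of the 2 day 0 arrays, and with the other array at its lowest signal above background the change came to 16.9-fold. Retinoic acid genes called higher numbered 5 with day 6 replicate 1 left out and 4 with day 6 replicate 2 left out, and those called lower 1 with day 0 replicate 2 left out, 1 with day 6 replicate 1 left out and 1 with day 6 replicate 2 left out. Notch genes called higher numbered 4 with day 6 replicate 1 left out and 5 with day 6 replicate 2 left out.

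Of 12 genes of DNA methylation 2 were higher and 2 lower, near the shares over all tested genes (11.1% and 12.9%). Dnmt3a read -0.28 and 0.17 at day 0 and 1.72 and 1.67 at day 6, 3.37-fold (adjusted p = 0.0124) higher, and Tet1, which oxidises methylcytosine and is high in ES cells, read 3.59 and 4.03 at day 0 and 1.46 and 1.33 at day 6, 5.33-fold (adjusted p = 0.000963) lower. Dnmt1 (-0.24) was not called. Of 28 Polycomb and remodelling genes 5 were higher and 7 lower. The ES cell forms Cbx7 (-2.79) and Epop (-2.32) and the core subunit Eed (-1.78) were lower, Cbx2 (1.38) and the ATPase Smarca2 (3.15) were higher, and Ezh2 (3.5 and 3.75 at day 0 and 3.52 and 3.56 at day 6) was not called. Cbx7 is the chromodomain protein of the ES cell complex, and Cbx2 is one of its counterparts in differentiated cells. Dnmt3a lost its call without day 0 replicate 1, day 6 replicate 1 or day 6 replicate 2 (highest adjusted p = 0.0727). Polycomb genes called higher numbered 3 with day 0 replicate 2 left out, 3 with day 6 replicate 1 left out and 2 with day 6 replicate 2 left out, and those called lower 4 with day 0 replicate 2 left out, 4 with day 6 replicate 1 left out and 3 with day 6 replicate 2 left out.

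Of 36 cell cycle genes 2 were higher and 5 lower, the second count near the share of all tested genes that were lower (12.9%), with a median of -0.32. Mki67, the Ki-67 antigen, read 4.41 and 4.82 at day 0 and 4.75 and 4.9 at day 6 and was not called. Ccne1, cyclin E1, which is high through the ES cell cycle, read 6.56 and 6.43 at day 0 and 4.54 and 4.4 at day 6, a change of -2.03 (SE 0.26, adjusted p = 0.00318), and Ccnd1 was lower (-1.05) where Ccnd2 was higher (2.43). Myc (-1.19) and Mycn (-1.14) were lower. Of 16 p53 and apoptosis genes 5 were lower and none higher, with Trp53 at -1.6 and Bcl2l11 (Bim) at -1.49. Of 28 genes of glycolysis and the response to low oxygen 11 were higher and none lower. Aldoc read 3.11 and 3.31 at day 0 and 6.02 and 5.72 at day 6, a change of 2.66 (SE 0.22, adjusted p = 0.00078), and Adm, Bnip3 and Ndrg1 rose 8.21-fold, 5.9-fold and 5.41-fold. Of 24 genes of mitochondrial respiration 2 were higher, the muscle form Cox6a2 (3.85) and Ppargc1a (at least 5.12-fold). Ccnd1, Ccnd2, Myc and Adm lost their call without day 0 replicate 2, day 6 replicate 1 or day 6 replicate 2 (highest adjusted p = 0.122, 0.0781, 0.114 and 0.0898). Mycn lost its call without day 0 replicate 1, day 6 replicate 1 or day 6 replicate 2 (highest adjusted p = 0.111). Trp53 lost its call without day 6 replicate 1 or day 6 replicate 2 (highest adjusted p = 0.0912). Bcl2l11 lost its call without day 6 replicate 2 (adjusted p = 0.0533). Bnip3 and Ppargc1a lost their call without day 6 replicate 1 (adjusted p = 0.0636 and 0.052). Cox6a2 lost its call when any 1 of the 4 arrays was left out (highest adjusted p = 0.161). Cell cycle genes called lower numbered 3 with day 0 replicate 1 left out, 2 with day 0 replicate 2 left out, 1 with day 6 replicate 1 left out and 1 with day 6 replicate 2 left out. Genes of p53 and apoptosis called lower numbered 3 with day 0 replicate 2 left out, 1 with day 6 replicate 1 left out and 0 with day 6 replicate 2 left out. Glycolysis and hypoxia genes called higher numbered 7 with day 0 replicate 1 left out, 3 with day 6 replicate 1 left out and 5 with day 6 replicate 2 left out.

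Imprinted genes, expressed from 1 parental copy, rose more often than they fell, with 12 of 31 higher and 1 lower and a median of 1.31. H19, a noncoding RNA, read 4.11 and 3.34 at day 0 and 7.54 and 8.24 at day 6, a change of 4.17 (SE 0.53, adjusted p = 0.00317). Its neighbour Igf2 read -1.9 and -3.96 at day 0 and 1.06 and 0.90 at day 6 and was not called, with an SE of 1.61. Airn read -1.66 and -2.02 at day 0 and 1.5 and 2.76 at day 6, 15.7-fold (adjusted p = 0.00537), and the gene it overlaps, Igf2r, read 1.98 and 1.81 at day 0 and 3.81 and 3.77 at day 6, 3.72-fold (adjusted p = 0.00943). Usp29 and Peg3, neighbours in 1 domain, rose by 3.4 and 2.57 on the log2 scale, Rasgrf1 7.42-fold and Ndn 4.82-fold. Meg3 (3.61 and 5.29 at day 0 and 5.31 and 5.45 at day 6) was not called, and Cobl was 10.7-fold lower. In the list of X inactivation and Y-linked genes 1 of 8 was higher and 1 lower. Tsix, the antisense partner of Xist, fell at least 5.43-fold, Xist (-8.25 and -5.05 at day 0 and -7.65 and -7.15 at day 6) was not called, and Jpx was called higher with no probe above background on any wild-type array, so no fold is given. Igf2 was called with the 4 wild-type arrays alone (adjusted p = 0.0322). Igf2r lost its call without day 6 replicate 1 or day 6 replicate 2 (highest adjusted p = 0.0601). Ndn lost its call without day 0 replicate 2, day 6 replicate 1 or day 6 replicate 2 (highest adjusted p = 0.0818). Cobl lost its call without day 6 replicate 2 (adjusted p = 0.055). Xist was called without day 0 replicate 1 (adjusted p = 0.0161). Jpx was not called with normexp background correction (adjusted p = 0.181). Imprinted genes called higher numbered 7 with day 6 replicate 1 left out and 6 with day 6 replicate 2 left out.

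The remaining lists moved little or both ways. Of 13 interferon genes 1 was higher and 2 lower, Usp18 (3.48) against Oas1a (-2.17) and Ifitm3 (-2.18). Of 14 immediate early genes 4 were higher and 1 lower, Egr2 (2.48) being the largest rise. Of 16 genes of lipid and haem transport 6 were higher and 4 lower, Apoa1 and Trf from the yolk sac list among them. Oas1a and Ifitm3 lost their call without day 0 replicate 1, day 6 replicate 1 or day 6 replicate 2 (highest adjusted p = 0.118 and 0.0803). Oas1a was not called with the 4 wild-type arrays alone (adjusted p = 0.0512). Immediate early genes called higher numbered 1 with day 0 replicate 2 left out, 1 with day 6 replicate 1 left out and 1 with day 6 replicate 2 left out. Lipid and haem genes called higher numbered 3 with day 0 replicate 1 left out, 1 with day 0 replicate 2 left out, 2 with day 6 replicate 1 left out and 1 with day 6 replicate 2 left out, and those called lower 2 with day 6 replicate 1 left out and 2 with day 6 replicate 2 left out.

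Among called genes with a current symbol on no list, the largest rises included genes of mesoderm and matrix. Foxf1, the forkhead factor of lateral plate and gut mesoderm, read -2.76 and -5.48 at day 0 and 3.7 and 4.14 at day 6, a change of 8.04 (SE 0.79, adjusted p = 0.00127). Another passing probe of Foxf1 changed by 4.03. Nepn, nephrocan, a secreted leucine-rich protein, had no probe above background at day 0 and rose at least 304-fold (adjusted p = 0.000384). Pitx1, a homeobox factor of hindlimb and pituitary, read -3.1 and -4.91 at day 0 and 3.06 and 4.16 at day 6, 196-fold (adjusted p = 0.000932). Hapln1, which links hyaluronan to proteoglycan, was at least 217-fold and Frem1, of the basement membrane, 189-fold higher. Cd93, of endothelium, rose 186-fold and Rgs5, of pericytes, at least 178-fold. The others were Prss12 (234-fold), Habp2 (195-fold), cholecystokinin, Cck (7.14 on the log2 scale), Ctla2a (135-fold) and Sphkap. The Sphkap probe used was not above background at day 0. With both day 0 arrays at their lowest signal above background its change came to 84.2-fold. Another probe of Sphkap stood above background on 1 day 0 array, and the changes of its passing probes ran from 2.6 to 7.26. Sphkap and Ctla2a lost their call without day 6 replicate 1 or day 6 replicate 2 (highest adjusted p = 0.0587 and 0.0612). Frem1, Cd93 and Habp2 stood above background on 1 of the 2 day 0 arrays, and with the other array at its lowest signal above background the changes of Frem1 and Habp2 came to 154-fold and 90.3-fold.

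The largest falls on no list included Aoah, which deacylates lipopolysaccharide (60.8-fold), Eprn (59.5-fold), Accsl (57.1-fold) and the steroid dehydrogenase Hsd17b14 (54.3-fold), with adjusted p of 0.000458 to 0.00142. Rhox10, a homeobox gene of the reproductive cluster on the X chromosome, read -0.70 and 1.59 at day 0 and -5.98 and -6.17 at day 6, at least 49.9-fold (adjusted p = 0.00316). Mep1b fell 47.7-fold, Myo1f 43.2-fold, Acsbg3 47.4-fold, AA414992 45.1-fold and Triml1 41.5-fold. Syce1, of the synaptonemal complex of meiosis, read 3.09 and 3.38 at day 0 and -1.69 and -2.15 at day 6, 35.6-fold (adjusted p = 0.00139). Aoah and Acsbg3 stood above background on 1 of the 2 day 6 arrays, and with the other array at its lowest signal above background the change of Aoah came to 40.3-fold.

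Some called genes lay side by side on chromosomes. In the RefSeq order of 17701 tested genes with a current symbol, of which 13.9% were called higher and 13.8% lower, 43 runs of at least 4 neighbours were called in the same direction, 20 higher and 23 lower. These runs were looked for after the values were known and were not tested. The longest, on chromosome 4, held 14 genes, most with zinc-finger symbols, all lower, with changes from -1.12 to -4.57. Rex2, of the KRAB zinc-finger family, read 3.14 and 3.57 at day 0 and -0.76 and -1.12 at day 6, a change of -4.29 (SE 0.25, adjusted p = 0.000366), Zfp600 fell 17-fold, Zfp987 12.5-fold and Zfp933, the last of the run, 3.34-fold. The tested genes on each side, Gm13249 at -0.11 and Miip at 0.05, were not called. Members of the cluster are near copies of each other, so their probes can share signal and the 14 are not independent. Rex2, Zfp600, Zfp987 and Zfp933 were chosen for mention after their values were seen, as were the genes newly named in the next paragraph. Zfp933 lost its call without day 6 replicate 1 or day 6 replicate 2 (highest adjusted p = 0.0923). Zfp933 was not called with the mean of its probes (adjusted p = 0.0961).

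**Figure D5:**
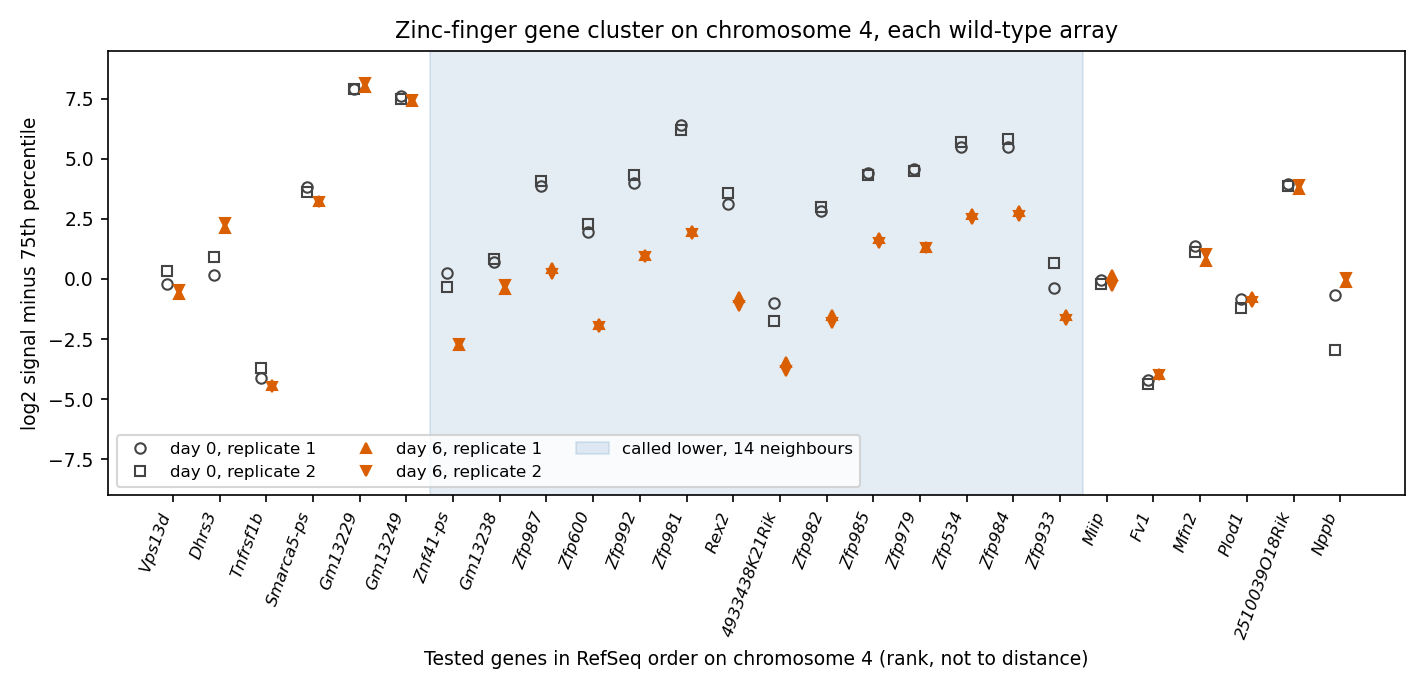
Log2 signal on each wild-type array, relative to the 75th percentile of the array, for 26 neighbouring tested genes in RefSeq order on chromosome 4, with open symbols for day 0 and filled symbols for day 6. In the shaded run of 14 genes both day 6 arrays lie below both day 0 arrays. Some genes on either side, such as Vps13d and Mfn2, also lie lower at day 6, by less, and were not called. The only called gene drawn outside the run is Dhrs3, which was higher.

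Other runs brought together genes already named. On chromosome 11, Hoxb6 to Hoxb1 formed a run of 6 higher genes, and on chromosome 2, 6 genes from Hoxd9 to Hoxd1 did. On chromosome 9, 7 genes were lower from Gsta4 (-1.77) and Gsta2 (-2.31) through Dppa5a and Ooep to the germ cell helicase Ddx43 (-2.89). On chromosome 17, 6 genes around Igf2r and Airn were higher, from plasminogen, Plg (at least 21.3-fold) to Mas1 (2.79). Mas1 stood above background on 1 of the 2 day 0 arrays. On chromosome 6, a run of 6 held Gimap6 (at least 31.6-fold) and Gimap5 (at least 7.65-fold), small GTPases of lymphoid and vessel cells. Gsta2 lost its call without day 0 replicate 1, day 6 replicate 1 or day 6 replicate 2 (highest adjusted p = 0.149). Gsta2 was not called with normexp background correction or with the 4 wild-type arrays alone (highest adjusted p = 0.209).

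The R141C cells changed in the same direction for most of these genes. Their arrays also entered the spread, the probe choice and the filter behind the calls. Their days lay in the same slide columns as those of wild type. Of the 2865 genes higher in wild type 98.2% had a change of the same sign in R141C, and of the 3338 lower genes 97.3%. The same share over all tested genes was not counted. The difference of the day effect between genotypes was called in limma for 0 of 25893 genes (0%, smallest adjusted p = 0.121), with 1458 at an unadjusted p under 0.05. Under quantile normalization 7 genes were called in that difference and in the deposited matrix 1. Of the genes named above, Actc1 changed by 5.73 in wild type and by -0.09 in R141C, Nppa by 4.73 and -0.61, and Amn by -1.69 and 1.36. The R141C values of Actc1 and Nppa were below 0 where those of wild type were well above it, yet none of the 3 differences was called (adjusted p = 0.849, 0.692 and 0.208 in that order). None of the changes described above is therefore shown to be particular to wild-type cells.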

How the data were processed

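Each sample was total RNA on 1 single-colour Agilent mouse array. The deposited intensity per spot is the scanner's processed signal, with a spatial background subtracted by Feature Extraction, version 11.5.1.1 per the file headers and 10.5.1.1 per the submitters' processing notes. The deposited series matrix holds log2 values whose normalization and filter are not stated in the sources used here, and it served as an alternative. The deposited flags mark spots above background, saturated (0 were) or outlying.

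From these, control and outlier spots were left out, spots of a probe averaged, and log2 taken after the 75th percentile of each array was set to 0. Of 55681 probes, the one with the highest mean over the 8 arrays stood for each of 34735 genes, and a gene was tested if both arrays of any of the 4 groups had this probe flagged as well above background. Limma 3.58.1 in R 4.3.3 fitted 4 group means to all 8 arrays, after a check on simulated data. The lower bound of a fold takes, for each array of the dimmer day, the higher of the probe's own signal and the lowest signal among probes above background. Old names were updated through RefSeq for 2058 probes.

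The alternatives were other scalings, a normexp background with offset 50, the deposited matrix, other filters, a variance trend, the 4 wild-type arrays alone, a minimum of 2-fold, probe means, fits that left out each array in turn and a fit with the replicate number as a block. The members and lists were chosen with earlier results of these data known. The naming rule allows the first 4 measured members of a list, its largest called changes in each direction, every tested globin, Hox and naive gene, the 12 largest changes each way on no list, and Nkx2-5; not every gene that it allows is printed, and others are marked in the text. Some genes within the counts are not reported here. Array number, 2 for each group, limits the precision.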

Additional observations from a re-analysis of the deposited data

How the results depend on the processing

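The direction of change held for all 376 named called genes under every alternative that gave a value, and 212 of them were called under each one. Leaving out 1 of the 4 wild-type arrays gave 2155 to 4371 called genes, 1020 to 2039 of them higher and 1135 to 2332 lower, against 6203, 2865 and 3338 with all arrays; of the named genes 64 and 84 lost their call when replicate 1 or replicate 2 of day 0 was left out, and 133 and 147 when replicate 1 or 2 of day 6 was. Without a filter on dim probes 5733 genes were higher and 3261 lower. The difference between genotypes was called for 7 genes with quantile normalization and for 1 in the deposited matrix, and for 0 with the other alternatives, the 4 wild-type arrays alone giving no value. Median scaling moved the share of higher calls from 46.2% to 53.1%. The labels do not say whether replicate numbers pair the cultures. Deviations between replicates correlated at 0 between the wild-type days and at 0.339 between the R141C days, which cannot settle it. The fit with the replicate block called 6232 genes, including 92.2% of those called without it. With the mean of the probes 28 called genes turned sign, 4 of them called, and with normexp 10 did, none called; no named gene was among them. Passing probes opposed each other in sign for Otx2, Atp2a2, Bcl2l11, Meg3, Hbb-bh2, Hoxa9 and Zfp933, besides the genes where the report says so. For others they shared a sign but differed in size, as for H19 (1.12 to 4.96) and Airn (1.51 to 4.97). Testing only genes above background on both arrays of a wild-type group, an alternative chosen after seeing the data, left 25454 genes. Of 110 named genes that were not called, 25 were called under some alternative. The median of 9 of the 49 lists turned sign under an alternative, among them the lists of DNA methylation, Polycomb, smooth muscle and reference genes. With 2 arrays a day the error is wide, and dim genes at day 6 have only a bound.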
